A study of Homo sapiens with 6 samples.

Results

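The mitochondrial ribosomal proteins were examined in H661, a human large cell lung carcinoma line, after knockdown of the transcription factor SALL4. Members were all genes whose platform symbol begins with MRPL or MRPS followed by a digit and whose probe set carries that symbol alone. This gave 74 of the 18404 named genes, of which 73 are protein-coding and 1, MRPS31P5, is a pseudogene. One group carried a lentiviral SALL4 short hairpin (SALL4-sh, 3 arrays), and its controls carried a scrambled hairpin (Scr-sh, 3 arrays). Both groups thus carried a lentiviral vector with a hairpin, and the knockdown rests on 1 hairpin in 1 cell line. Whether each group's 3 arrays stand for separately grown cultures is stated nowhere, and p-values measure only the spread between these arrays, which may be technical.

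The mitochondrial ribosome translates the few messages of mitochondrial DNA, all of which encode subunits of the respiratory chain and the ATP synthase. Its own proteins are encoded in the nucleus, made in the cytosol and imported. About its core it keeps homologues of bacterial ribosomal proteins, and around them lie proteins found only in mitochondrial ribosomes. Names follow MRPL for the large and MRPS for the small subunit, although MRPS30 and MRPS18A sit in the large subunit. By structure, 50 of the 73 protein-coding members belong to the large and 23 to the small subunit. Of the same 73, 43 were classed as having a bacterial homologue and 30 as mitochondria-specific. In this classing MRPS18A and MRPS18B count as mitochondria-specific, while MRPS18C, of the same name series, counts as having a bacterial homologue.

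Values are RMA intensities on a linear scale with a floor of 8. RMA is the background correction, normalization and probe summary commonly used for this type of array. SALL4 itself had 33.6, 31.9 and 26.5 in SALL4-sh cells, against 125.5, 104.4 and 130.2 in Scr-sh cells, a log2 fold change of -1.97 ± 0.17 (SE, limma adjusted p = 0.00064). No member was at the floor on any array, and all 74 passed the filter on dim genes. Between arrays of one group the correlation over tested genes was 0.954 to 0.975, and between groups it was 0.923 to 0.942. Of 5 epithelial markers, EPCAM averaged 996 ± 139 in SALL4-sh cells and 746 ± 154 in Scr-sh cells (SD, n = 3 each, adjusted p = 0.23). CDH1, which encodes E-cadherin, passed the test at a log2 fold change of 0.91 (adjusted p = 0.0096), with 17.2, 16.1 and 17.3 in SALL4-sh cells, against 10.5, 8 and 8.68 in Scr-sh cells, near the floor. The keratins KRT18 (-0.44), KRT19 (-0.11) and KRT8 (0.069) did not pass, and KRT8 averaged 9.50 in SALL4-sh cells and 9.01 in Scr-sh cells. All 3 endothelial markers (PECAM1, CDH5 and VWF) and 4 of 5 leukocyte markers were too dim to be tested. Of the fibroblast markers, DCN and LUM were too dim. COL1A1 averaged 35.9 ± 2.33 in SALL4-sh cells and 50.1 ± 1.43 in Scr-sh cells (SD, n = 3 each), without overlap (adjusted p = 0.074), and COL3A1 averaged 103 ± 12.1 in SALL4-sh cells and 86.9 ± 8.47 in Scr-sh cells (adjusted p = 0.46). The part of these markers in the members' values was not tested.

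The start-site sequences of 6 members that passed the test are shown first, 3 lower and 3 higher in SALL4-sh cells. They were picked by their calls. Each runs from 150 bases before to 30 bases from the RefSeq transcription start, 5′ to 3′ on the gene's strand. Capitals mark matches to 5 motifs searched on both strands: TGCGCA for NRF1, CCGGAAG for the ETS family (which includes GABPA), CCAAT for NF-Y, ATGGCGG for YY1 and CACGTG for the E-box.
MRPS15: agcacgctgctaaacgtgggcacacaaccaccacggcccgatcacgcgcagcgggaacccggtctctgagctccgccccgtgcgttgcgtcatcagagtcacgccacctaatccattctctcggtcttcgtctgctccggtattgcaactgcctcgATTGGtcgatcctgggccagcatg
MRPL24: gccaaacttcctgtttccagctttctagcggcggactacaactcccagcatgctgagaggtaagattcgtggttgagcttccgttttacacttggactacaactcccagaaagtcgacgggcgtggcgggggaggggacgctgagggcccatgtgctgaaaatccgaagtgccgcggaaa
MRPS14: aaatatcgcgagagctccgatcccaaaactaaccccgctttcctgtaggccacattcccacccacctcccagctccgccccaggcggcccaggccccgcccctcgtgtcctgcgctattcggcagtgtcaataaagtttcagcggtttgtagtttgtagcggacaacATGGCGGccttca
MRPL39: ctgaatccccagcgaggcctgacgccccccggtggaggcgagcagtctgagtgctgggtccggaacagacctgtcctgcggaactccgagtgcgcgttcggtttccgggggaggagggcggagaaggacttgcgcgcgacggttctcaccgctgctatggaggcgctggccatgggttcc
MRPS35: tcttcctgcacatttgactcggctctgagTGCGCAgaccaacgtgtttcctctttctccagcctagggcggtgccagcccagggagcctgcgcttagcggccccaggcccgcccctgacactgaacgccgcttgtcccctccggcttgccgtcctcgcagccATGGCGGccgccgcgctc
MRPL1: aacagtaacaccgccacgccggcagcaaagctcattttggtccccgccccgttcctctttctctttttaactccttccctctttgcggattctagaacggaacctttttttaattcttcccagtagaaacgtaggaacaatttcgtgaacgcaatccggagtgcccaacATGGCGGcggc
On GRCh38.p14 these are chr1:36464355-36464534 on the minus strand for MRPS15, chr1:156741059-156741238 (minus) for MRPL24 and chr1:175023396-175023575 (minus) for MRPS14. MRPL39 is at chr21:25607452-25607631 (minus), MRPS35 at chr12:27710682-27710861 (plus) and MRPL1 at chr4:77862680-77862859 (plus). The YY1 letters stood within the 30 bases from the start in MRPS14, a lower member, and in MRPS35 and MRPL1, which were higher. MRPS35 also held the NRF1 letters, and MRPS15 the NF-Y letters on the opposite strand. MRPS15, a lower member, also has the YY1 letters in its wider window of 300 bases, though not as a full match in the stretch shown. In MRPL24 (lower) and MRPL39 (higher) none of the 5 motifs was found in the stretch shown.

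Across the family, start-site windows of 300 bases (250 before and 50 from the start) were found for 66 members, in 82 windows. MRPL2, MRPL10, MRPL13, MRPL15, MRPL21, MRPL23, MRPL35 and MRPS31P5 had no entry. The YY1 letters, which can include the first codon of the protein, were in 29.3% of member windows and 6.99% of all 22198 windows of protein-coding genes. The ETS letters were in 39.0% of member windows and 12.8% of all windows. For NRF1 the shares were 19.5% and 9.88%, for the E-box 11.0% and 8.34%, and for NF-Y 34.1% and 34.7%. The 23 members with the YY1 letters had a median log2 fold change of 0.068 with 2 higher and 4 lower, and the 43 without them a median of 0.0021 with 1 higher and 2 lower. The 29 with the ETS letters had a median of 0.028 with 0 higher and 2 lower, and the 37 without them a median of -0.010 with 3 higher and 4 lower. The 14 with the NRF1 letters had a median of 0.19 with 1 higher and 0 lower, and the 52 without them a median of -0.0062 with 2 higher and 6 lower. For the 9 with the E-box letters the median was -0.26 with 0 higher and 1 lower, and for the 57 without them 0.028 with 3 higher and 5 lower. For the 23 with the NF-Y letters it was 0.0099 with 0 higher and 3 lower, and for the 43 without them 0.095 with 3 higher and 3 lower. Over all genes tested, 5.95% were called higher and 5.54% lower. None of these splits was tested. These are matches of letters, not of binding.

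The question of the comparison was which of these genes differed in RNA level when SALL4 was knocked down. As a set, the mitochondrial ribosomal proteins did not move one way. The protein-coding members had a median log2 fold change of 0.0021, beside 0.018 over all 13803 genes tested, with 37 above 0 and 36 below it. This median was -0.016 after median centring, -0.039 after cyclic loess and -0.022 after quantile normalization. Their interquartile range was -0.28 to 0.24, beside -0.20 to 0.26 over all genes tested. Their median size of change, whatever its sign, was 0.27 on the log2 scale, beside 0.23 over all genes. The members that passed the test are described singly.

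Limma with Benjamini-Hochberg adjustment over all 13803 genes called 4 members higher in SALL4-sh cells, 3 of them protein-coding, where 5.95% of all genes were called higher. It called 7 members lower, where 5.54% of all genes were. The remaining 63 did not pass. All 3 SALL4-sh values lay above all Scr-sh values for 13 members (15.7% of all genes) and below them for 10 (13.1% of all genes). At an unadjusted p under 0.05, 11 members were higher (13.6% of all genes) and 12 lower (11.1%). Without the filter on dim genes, 1 was higher (1.18% of 18404 genes) and 2 were lower (1.33%). The counts also moved with single arrays. Without SALL4-sh replicate 1, 2 and 3 in turn they were 0, 1 and 0 higher, where 3.09%, 2.38% and 2.34% of all genes were, and 4, 2 and 2 lower, where 3.41%, 3.18% and 2.77% were. Without Scr-sh replicate 1 and 3 there were 0 higher (3.3% and 2.81% of all genes) and 3 lower in each fit (3.94% and 3.46%). Without Scr-sh replicate 2 there were 6 higher and 8 lower, where 8.08% and 6.01% of all genes were. The shares over all genes thus moved with the same arrays.

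**Figure D1:**
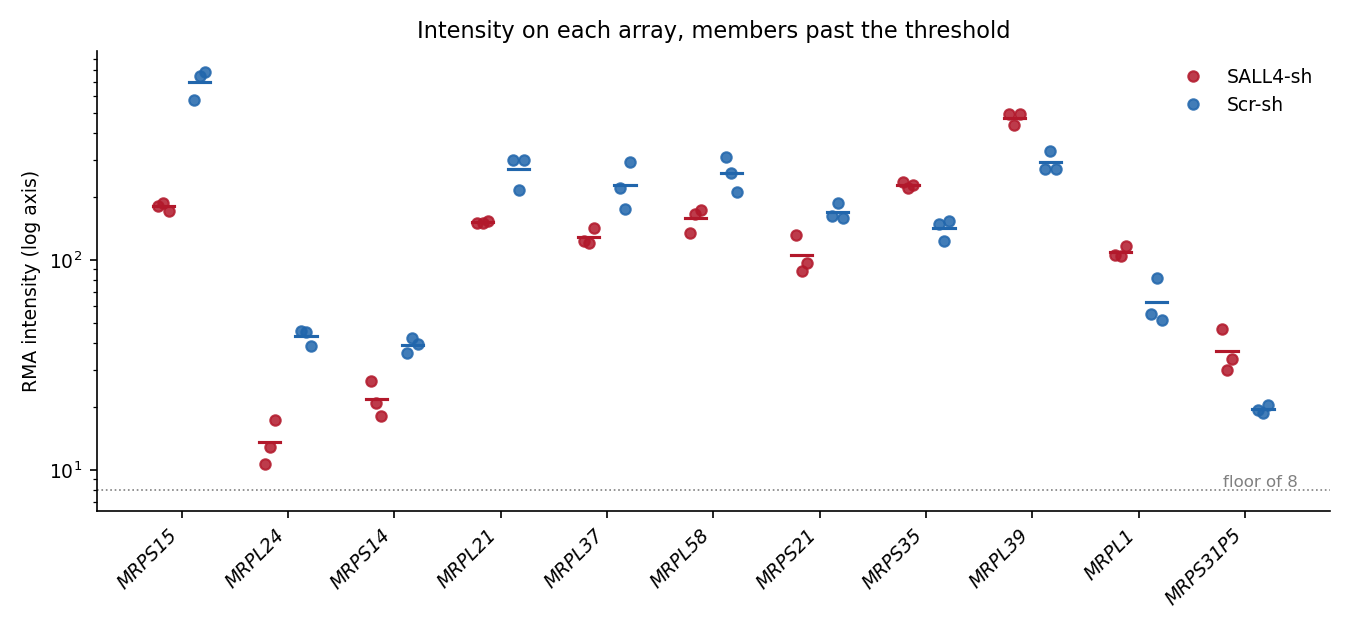
RMA intensity (log axis) on each array for the 11 members past the threshold, SALL4-sh in red and Scr-sh in blue; bars are group means, and 8 is the lowest value in the table (dotted). The groups of every gene shown are separated, with the widest gap in MRPS15, at 170.3 to 187 in SALL4-sh cells against 577 to 787 in Scr-sh cells.

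Among small-subunit proteins, MRPS15, the homologue of bacterial uS15, which binds the small-subunit rRNA, had the largest change of any member. Its intensity was 181, 187 and 170.3 in SALL4-sh cells, against 577, 748 and 787 in Scr-sh cells. No SALL4-sh value came near the lowest Scr-sh value. The log2 fold change was -1.96 ± 0.17 (SE, adjusted p = 0.00064), a 3.89-fold lower level, and 41 of the 13803 genes had a lower fold change. It passed with each of the 6 arrays left out in turn, at log2 fold changes of -2.10 to -1.87. MRPS15 was also among the 5 brightest members, so the measurement stood far from the floor.

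MRPS14, the homologue of bacterial uS14 in the head of the small subunit, was dim. It read 26.3, 20.9 and 18.1 in SALL4-sh cells, against 35.8, 42.4 and 39.6 in Scr-sh cells. The groups did not overlap, and the log2 fold change was -0.86 ± 0.18 (SE, adjusted p = 0.018). It passed in 3 of the 6 fits with 1 array left out, with adjusted p-values of 0.024 to 0.073. MRPS21, the homologue of bS21, read 131, 88.5 and 96.7 in SALL4-sh cells, against 161, 186 and 158 in Scr-sh cells. SALL4-sh replicate 1 was its highest SALL4-sh value and lay nearest to the Scr-sh arrays. This gave a log2 fold change of -0.69 ± 0.19 (SE, adjusted p = 0.047), and of the fits with 1 array left out it passed in the one without SALL4-sh replicate 1.

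MRPS35, a mitochondria-specific protein of the small subunit, was higher. It read 234, 220.1 and 226 in SALL4-sh cells, against 149, 122 and 153 in Scr-sh cells, with little spread among the SALL4-sh arrays. This was a rise of 0.69 ± 0.16 on the log2 scale (SE, adjusted p = 0.026). It passed without Scr-sh replicate 2 and in none of the other 5 fits with 1 array left out, where the highest adjusted p was 0.083.

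Among large-subunit proteins, MRPL24 fell most. It is the homologue of bacterial uL24, a protein that joins early in assembly of the bacterial large subunit. Its intensity was 10.7, 12.9 and 17.3 in SALL4-sh cells, against 46.0, 45.3 and 38.7 in Scr-sh cells. The SALL4-sh values lay close to the floor of 8, and none reached the lowest Scr-sh value. The log2 fold change was -1.69 ± 0.20 (SE, adjusted p = 0.0019), 3.24-fold lower, and 72 of all genes tested had a lower fold change. It passed with each of the 6 arrays left out in turn, with adjusted p-values of 0.0036 to 0.012.

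MRPL21, the homologue of bL21, read 149, 149.9 and 153 in SALL4-sh cells, against 297, 214 and 300.1 in Scr-sh cells. The SALL4-sh arrays differed by little, and Scr-sh replicate 2 stood below the other Scr-sh arrays. Limma gave a log2 fold change of -0.83 ± 0.18 (SE, adjusted p = 0.019). MRPL37, a mitochondria-specific protein, read 123, 120.0 and 141 in SALL4-sh cells, against 219, 174 and 292 in Scr-sh cells. Its groups were separated, with a wide spread in Scr-sh cells, and the log2 fold change was -0.81 ± 0.21 (SE, adjusted p = 0.037). MRPL58, also known as ICT1, is a peptidyl-tRNA hydrolase that is part of the large subunit and can release stalled chains. It read 134, 165 and 173 in SALL4-sh cells, against 309.6, 259.7 and 210.3 in Scr-sh cells, a log2 fold change of -0.71 ± 0.19 (SE, adjusted p = 0.045). MRPL21 and MRPL37 each passed without Scr-sh replicate 2 (adjusted p = 0.0061 and 0.012) and MRPL58 without Scr-sh replicate 3 (0.047), and none of them in the other 5 such fits.

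The 2 protein-coding large-subunit members that rose were MRPL1 and MRPL39. MRPL1 is the homologue of bacterial uL1, which forms the mobile stalk beside the tRNA exit site. It read 106, 104 and 116 in SALL4-sh cells, against 55.2, 81.8 and 51.7 in Scr-sh cells. Scr-sh replicate 2 was the nearest Scr-sh array to the SALL4-sh values. The log2 fold change was 0.82 ± 0.20 (SE, adjusted p = 0.030). MRPL39, a mitochondria-specific protein and one of the 5 brightest members, read 494, 437 and 495 in SALL4-sh cells, against 271, 330 and 272 in Scr-sh cells. Again the groups did not overlap, and the log2 fold change was 0.71 ± 0.16 (SE, adjusted p = 0.023). Both passed without Scr-sh replicate 2, at adjusted p-values of 0.0060 for MRPL1 and 0.016 for MRPL39, and in no other fit with 1 array left out.

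The pseudogene MRPS31P5 read 46.8, 29.8 and 33.8 in SALL4-sh cells, against 19.3, 18.6 and 20.4 in Scr-sh cells. SALL4-sh replicate 1 was its highest array, and the groups were separated. The log2 fold change was 0.90 ± 0.20 (SE, adjusted p = 0.019), and it passed without SALL4-sh replicate 2 and without Scr-sh replicate 2. It shares sequence with its parent gene MRPS31, and a signal from one can reach probes of the other. MRPS31 read 86.0, 124 and 112 in SALL4-sh cells, against 54.6, 108 and 73.9 in Scr-sh cells. Its groups overlapped (log2 fold change 0.48, adjusted p = 0.29). How far the 2 probe sets measure separate transcripts was not tested.

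**Figure D2:**
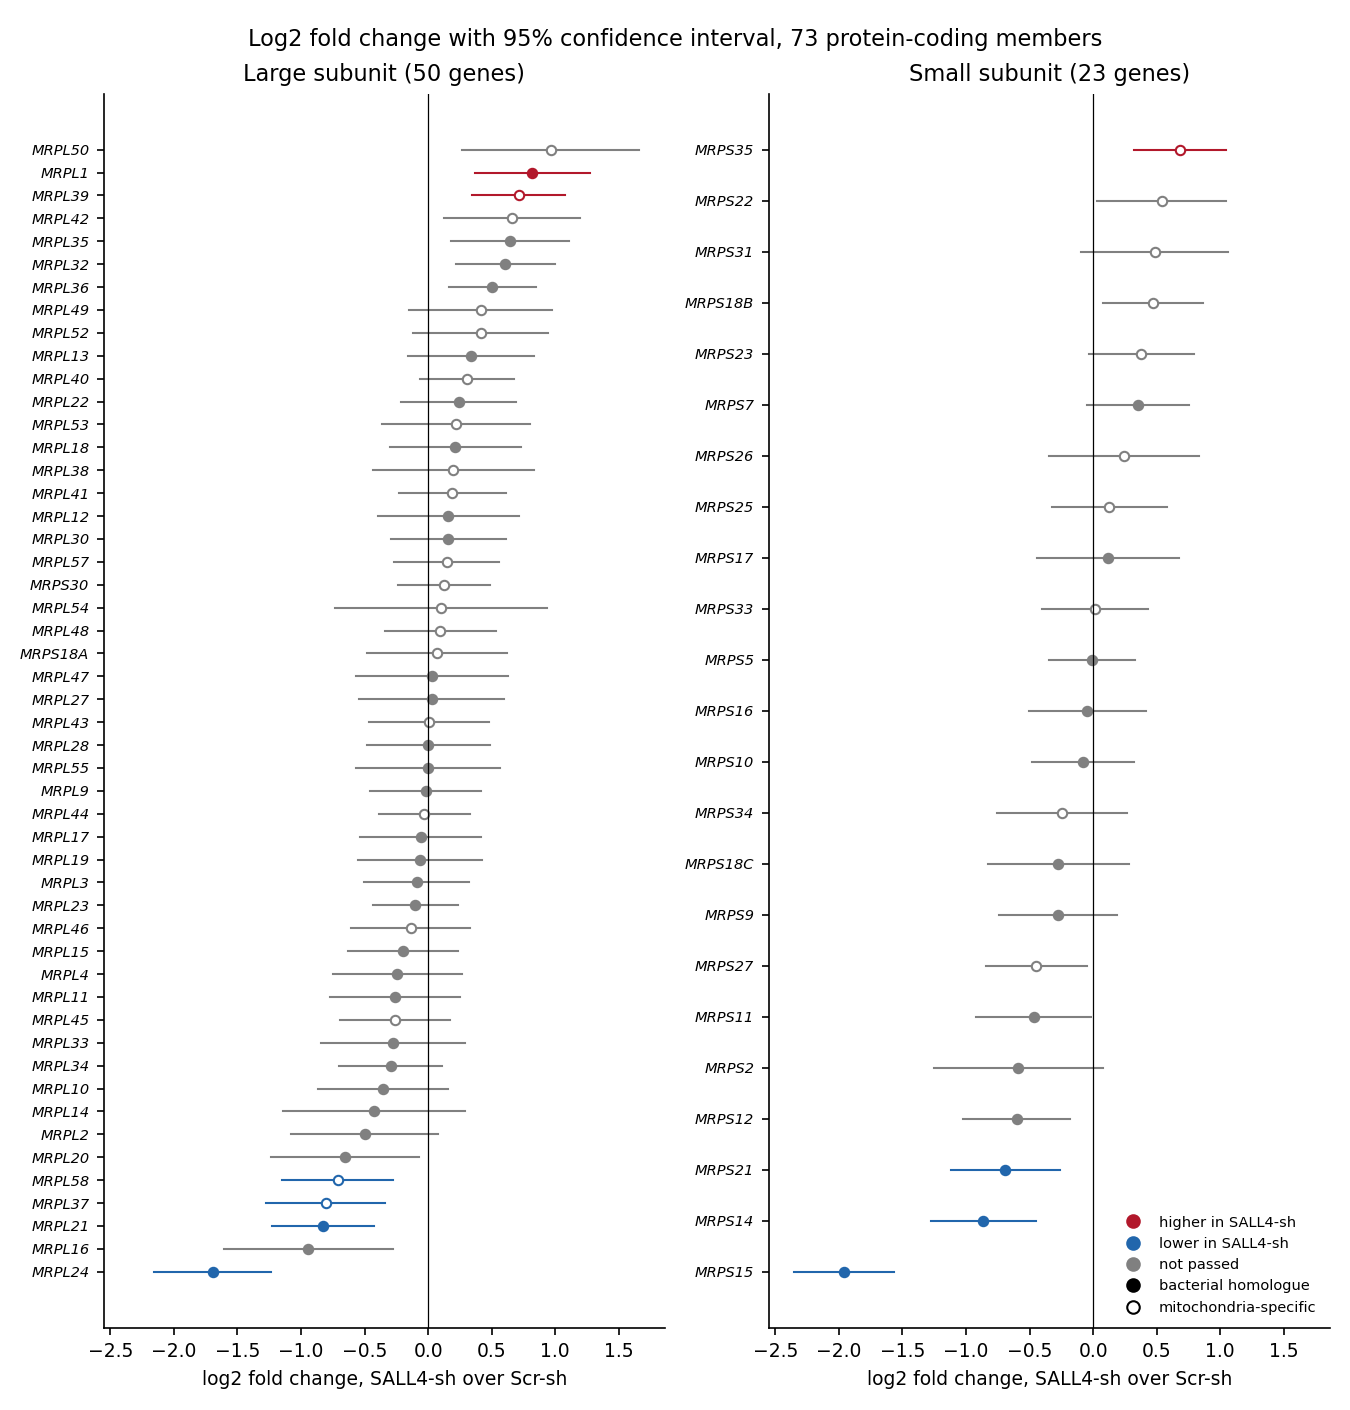
Log2 fold change (SALL4-sh over Scr-sh, horizontal axis) with its 95% confidence interval for the 73 protein-coding members, large subunit left and small subunit right; filled points have a bacterial homologue, open points are mitochondria-specific, red and blue passed the test. The values run from -1.96 for MRPS15 to 0.96 for MRPL50, and 51 of the 73 intervals include 0.

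Some members outside the threshold are given because of their values, which were seen first. MRPL50, a mitochondria-specific protein, had the highest log2 fold change of the family, 0.96 ± 0.31 (SE), at an adjusted p of 0.081. It read 109, 96.3 and 90.4 in SALL4-sh cells, against 47.5, 84.8 and 31.8 in Scr-sh cells, and the groups did not overlap. MRPL16, the homologue of uL16, read 17.2, 15.7 and 22.5 in SALL4-sh cells, against 46.8, 21.4 and 43.2 in Scr-sh cells. Here Scr-sh replicate 2 fell among the SALL4-sh values, and the log2 fold change was -0.94 (adjusted p = 0.074). Without Scr-sh replicate 2 both passed, MRPL50 at a log2 fold change of 1.34 (adjusted p = 0.0059) and MRPL16 at -1.30 (adjusted p = 0.0054). In the other 5 such fits neither passed, MRPL50 at 0.63 (without Scr-sh replicate 3, adjusted p = 0.22) to 1.02 and MRPL16 at -1.09 to -0.73 (the smallest change without Scr-sh replicate 1, adjusted p = 0.21). MRPL32, the homologue of bL32, stood at 0.61 on the log2 scale with an adjusted p of 0.054, the nearest to the threshold, and passed without Scr-sh replicate 2 (adjusted p = 0.020). MRPL2 and MRPS2 passed without that array and in no other such fit.

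The array that read lowest or highest in its group differed from member to member, and such counts were not made over all genes. Scr-sh replicate 2 was the lowest Scr-sh array for 31 of the 73 protein-coding members and the highest for 24, Scr-sh replicate 1 was the highest for 33, and SALL4-sh replicate 2 was the lowest SALL4-sh array for 29. Leaving out Scr-sh replicate 2 also moved the calls over all genes, to 1115 higher and 830 lower, against 821 and 764 with all arrays. MRPL54 read 35.8, 38.0 and 32.0 in SALL4-sh cells and 56.3, 16.7 and 37.4 in Scr-sh cells, the widest spread of any member within a group. MRPL14 read 37.6, 38.3 and 56.5 in SALL4-sh cells and 91.8, 36.3 and 59.1 in Scr-sh cells. In both genes Scr-sh replicate 2 was the lowest of all 6 arrays. On the log2 scale the median member differed from the mean of the other arrays of its group by 0.048 on Scr-sh replicate 2, by 0.082 on Scr-sh replicate 1 and by -0.066 on SALL4-sh replicate 2, and the median gene by 0.014, -0.0011 and 0.0065 on these arrays. The median SD between arrays of the members was 0.22 in SALL4-sh and 0.28 in Scr-sh cells on the log2 scale, beside 0.19 in SALL4-sh and 0.22 in Scr-sh cells over all genes tested.

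**Figure D3:**
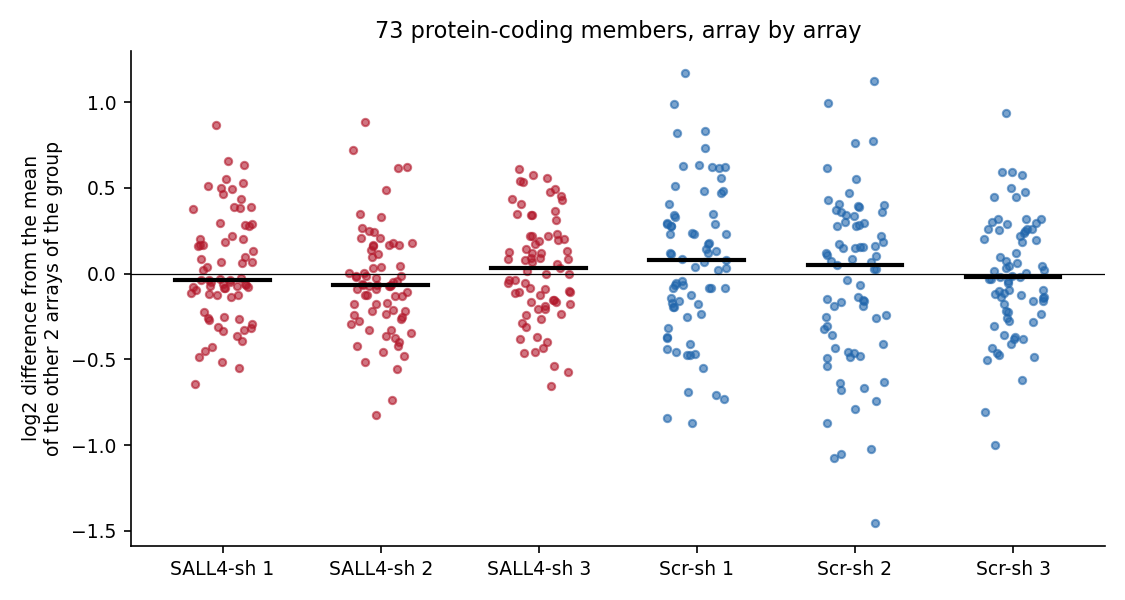
Log2 difference of each array from the mean of the other 2 arrays of its group, 1 point a protein-coding member, with the median as a bar (SALL4-sh red, Scr-sh blue). Medians run from -0.066 to 0.082 over the arrays, while the points of Scr-sh replicate 2 reach farthest down.

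The brightest and dimmest members show the measuring range. Besides MRPS15 and MRPL39, the 5 brightest were MRPS30, MRPL36 and MRPS5. MRPS30, a protein of the large subunit despite its name, averaged 415 ± 14.5 in SALL4-sh cells and 382 ± 46.4 in Scr-sh cells (SD, n = 3 each), with an adjusted p of 0.71. MRPS5, the homologue of uS5, averaged 258 ± 13.7 in SALL4-sh cells and 259.8 ± 9.15 in Scr-sh cells, and the 95% interval of its log2 fold change was -0.35 to 0.33. MRPL36, the homologue of bL36, read 425, 473 and 423 in SALL4-sh cells, against 322, 300.3 and 308 in Scr-sh cells. Its groups did not overlap, and the log2 fold change of 0.51 had an adjusted p of 0.062. It passed in 3 other settings, without the filter on dim genes (adjusted p = 0.037), with a trended and robust prior and with array weights, and in none of the fits with 1 array left out. MRPL36 was the only member with a second probe set, which averaged 57.3 ± 22.1 in SALL4-sh cells and 53.3 ± 15.2 in Scr-sh cells, a log2 fold change of 0.069.

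The 5 dimmest were MRPL49, MRPL23, MRPS12, MRPS18C and MRPL44. MRPS12, the homologue of uS12 at the decoding centre, read 17.1, 13.0 and 13.3 in SALL4-sh cells, against 19.4, 25.8 and 20.6 in Scr-sh cells. The groups were separated, and the log2 fold change of -0.60 had an adjusted p of 0.073. MRPL44, which carries an RNase III fold, averaged 19.8 ± 1.74 in SALL4-sh cells and 20.2 ± 1.58 in Scr-sh cells (adjusted p = 0.94). MRPL23, which lies at the exit of the peptide tunnel, averaged 16.7 ± 0.23 in SALL4-sh cells and 17.9 ± 0.84 in Scr-sh cells (adjusted p = 0.75). MRPL49 had adjusted p = 0.37 and MRPS18C had 0.57, and both overlapped between groups.

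By subunit, 2 of 50 large-subunit genes were higher and 4 lower, with a median log2 fold change of 0.019, and 1 of 23 small-subunit genes was higher and 3 lower, with a median of -0.045. For the large subunit, the median turned to -0.028 with cyclic loess, -0.013 with quantile normalization and -0.016 with array weights, and to -0.00070 without SALL4-sh replicate 1 and -0.043 without Scr-sh replicate 3. With 1 array left out it ran from -0.043 to 0.084, and for the small subunit from -0.13 (without Scr-sh replicate 3) to -0.0018 (without Scr-sh replicate 2). By origin, the 43 members with a bacterial homologue had a median of -0.091, with 14 above 0, 1 called higher (2.33%) and 5 lower (11.6%). The 30 mitochondria-specific members had a median of 0.17, with 23 above 0, 2 called higher (6.67%) and 2 lower (6.67%). Beside these counts by subunit and origin, 5.95% of all genes tested were called higher and 5.54% lower with all arrays. The 5 lower members with a bacterial homologue were MRPS15, MRPL24, MRPS14, MRPL21 and MRPS21. The 2 lower mitochondria-specific members were MRPL37 and MRPL58. With each array left out in turn, the median ran from -0.21 to -0.091 for bacterial homologues and from 0.084 to 0.22 for mitochondria-specific members, the lowest of each without SALL4-sh replicate 1 and without Scr-sh replicate 2. In these fits 0 to 2 bacterial homologues were called higher and 2 to 7 lower. For mitochondria-specific members the counts were 0 to 3 higher and 0 to 1 lower. The shares over all genes in these fits were 2.34% to 8.08% higher and 2.77% to 6.01% lower. The grouping was described and not tested.

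The other genes of mitochondrial translation also held a few calls in each direction, where 5.95% of all genes tested were called higher and 5.54% lower. The 4 mitoribosomal proteins measured under other names (DAP3, PTCD3, CHCHD1 and GADD45GIP1) did not pass by limma. At an unadjusted limma p under 0.05, 2 were higher and 1 lower, where 13.6% and 11.1% of all genes were. These 4 had a median log2 fold change of 0.32, with 3 above 0, up to 0.60, and DAP3 below it. DAP3, a GTP-binding protein of the small subunit, read 185, 152 and 169.5 in SALL4-sh cells, against 313, 222 and 219.6 in Scr-sh cells, a log2 fold change of -0.56 (adjusted p = 0.10). Of 27 assembly factors tested, 2 rose and 1 fell, with a median of 0.12 (0.055 without SALL4-sh replicate 1). NGRN, a factor that binds the mitochondrial large rRNA, read 326, 270.1 and 315 in SALL4-sh cells, against 151, 178 and 149 in Scr-sh cells (log2 fold change 0.93, adjusted p = 0.0080). DHX30, an RNA helicase, reached 0.89 (adjusted p = 0.037), and YBEY, an endoribonuclease, had -1.09 (adjusted p = 0.049). NGRN passed with each array left out in turn, and DHX30 and YBEY passed without Scr-sh replicate 1 and in no other such fit.

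Among 16 mitochondrial translation factors, 2 rose and 1 fell, although the median was -0.32. With 1 array left out this median ran from -0.42 without Scr-sh replicate 3 to -0.15 without Scr-sh replicate 2. For this list and those that follow, the shares over all genes tested were 5.95% higher and 5.54% lower. LRPPRC, which binds and stabilizes mitochondrial messages, had the largest rise. It read 422, 385 and 391 in SALL4-sh cells, against 144, 147 and 143 in Scr-sh cells, a log2 fold change of 1.46 ± 0.15 (SE, adjusted p = 0.0010). MTRF1L, a release factor, reached 0.87 (adjusted p = 0.026), and MTIF2, the initiation factor, had -0.81 (adjusted p = 0.037). LRPPRC passed with each array left out in turn. MTRF1L passed without Scr-sh replicate 2 and MTIF2 without Scr-sh replicate 1, and neither in the other 5 such fits. Of 19 genes for mitochondrial tRNA charging, 1 rose and 2 fell, with a median of 0.20. MARS2, the methionyl enzyme, had 1.05, IARS2, the isoleucyl enzyme, had -1.11, and GATC, a subunit of an amidotransferase rather than a synthetase, had -1.08. IARS2 passed in all 6 fits with 1 array left out, MARS2 in 4 and GATC in 3. Of 9 genes for expression and replication of mitochondrial DNA, TFB2M, a transcription factor of mitochondria, passed, at a log2 fold change of 0.93 (adjusted p = 0.014), and did so in 3 of the 6 fits with 1 array left out. None of 8 regulators of mitochondrial biogenesis tested passed by limma. At an unadjusted limma p under 0.05, 1 was higher, where 13.6% of all genes were.

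Of 75 nuclear-encoded genes of the respiratory chain and the ATP synthase, 3 rose and 5 fell, with a median of 0.095. The median was 0.0014 after cyclic loess and 0.041 without SALL4-sh replicate 1. With 1 array left out 1 to 3 were higher and 1 to 7 lower, the most without Scr-sh replicate 2. The shares over all genes in these fits were 2.34% to 8.08% higher and 2.77% to 6.01% lower. The largest were NDUFV3 (-0.93) and NDUFA7 (-0.84), both of complex I and lower, and NDUFA5 of complex I (0.91) and COX6C of complex IV (0.87), both higher. NDUFV3 and COX6C passed with each array left out in turn, NDUFA5 in 3 and NDUFA7 in 2 of the 6 such fits. Cytosolic ribosomal proteins, the counterpart of the members outside mitochondria, had a median of -0.42, with 62 of 65 below 0. By limma none was called higher and 16 were called lower, where 5.95% and 5.54% of all genes were. At an unadjusted p under 0.05 the counts were 0 and 33, where the shares over all genes were 13.6% and 11.1%. RPL13, RPS9 and RPS23 had log2 fold changes of -1.52, -1.43 and -1.36, and RPL39L, a paralog of RPL39, had -1.32. RPL13, RPS9 and RPS23 passed with each array left out in turn, and RPL39L in 4 of the 6 such fits. Their probes can also read processed pseudogenes, whose part was not tested. The count of lower cytosolic ribosomal proteins was 9, 8 and 6 without SALL4-sh replicate 1, 2 and 3, and 6, 19 and 7 without Scr-sh replicate 1, 2 and 3. In the same order, the shares of all genes called lower were 3.41%, 3.18% and 2.77%, and 3.94%, 6.01% and 3.46%. The difference between cytosolic and mitochondrial ribosomal proteins was not tested. In RNA from whole cultures, a change in every cell and a change in the share of cells in some state cannot be told apart.

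**Figure D4:**
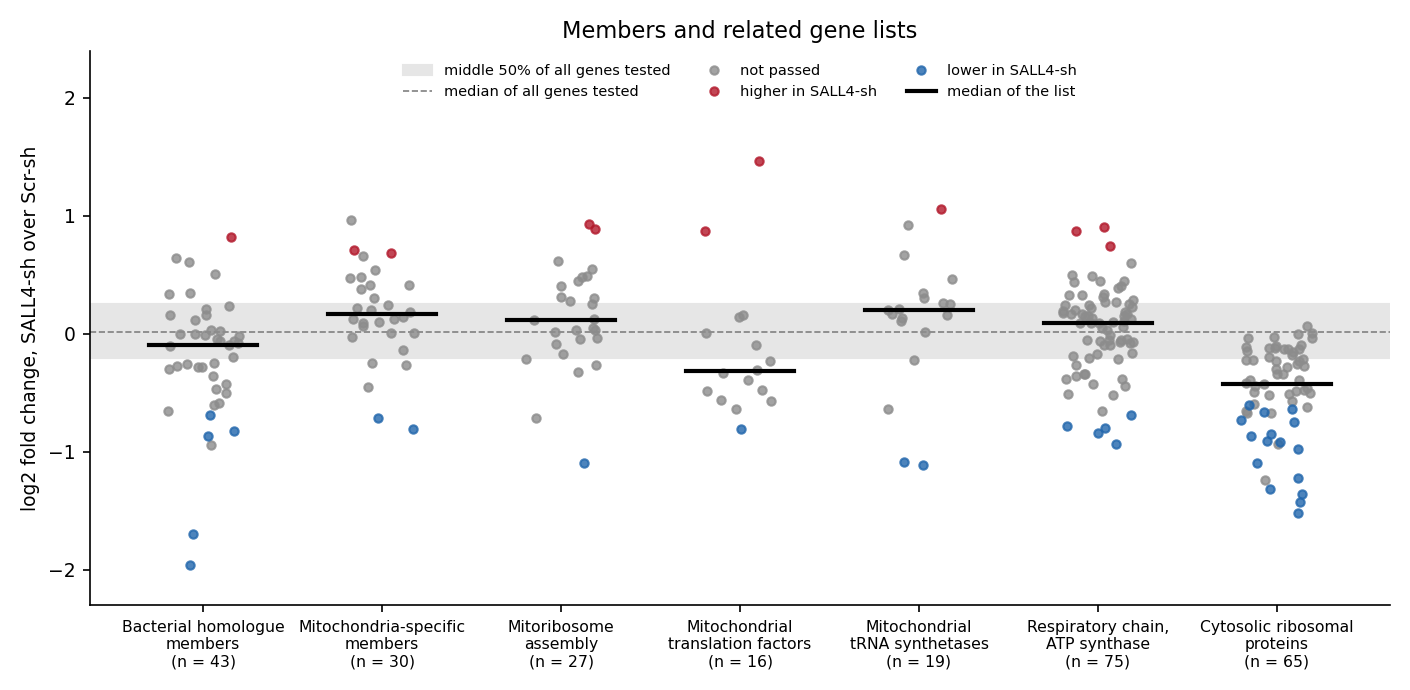
Log2 fold change (SALL4-sh over Scr-sh) of single genes in the members by origin and in related lists, with list medians as black bars; grey shading and the dashed line are the interquartile range and median of all genes tested, and red and blue points passed the test. Both classes of members straddle 0, at medians of -0.091 and 0.17, while the cytosolic ribosomal proteins lie mostly below it at -0.42.

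Some members share their start region with a neighbour on the opposite strand, and how often this holds over all genes was not counted. Within 1000 bases, 25 members had such a head-to-head neighbour, and 18 pairs had both genes tested, 1 of them made of the members MRPS11 and MRPL46. Of the 17 neighbours that are not members, 4 passed the test, and in each of these pairs the member did not. Over all genes tested, 5.95% were called higher and 5.54% lower, and 63 of the 74 members did not pass. The stretches between 3 of the 4 pairs with a passing neighbour are shown, each with 30 bases from the start of either gene, in the direction of the member.
FAU and MRPL49: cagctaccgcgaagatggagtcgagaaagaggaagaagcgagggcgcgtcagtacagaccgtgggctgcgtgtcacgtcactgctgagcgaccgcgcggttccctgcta
SKA3 and MRPL57: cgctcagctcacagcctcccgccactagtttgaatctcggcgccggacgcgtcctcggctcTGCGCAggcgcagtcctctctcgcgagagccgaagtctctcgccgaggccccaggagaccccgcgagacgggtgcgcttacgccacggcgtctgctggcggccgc
EME1 and MRPL27: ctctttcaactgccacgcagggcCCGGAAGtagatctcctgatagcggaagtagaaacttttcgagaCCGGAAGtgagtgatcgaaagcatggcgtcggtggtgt
On GRCh38.p14 these lie at chr11:65122104-65122212 (plus) for FAU and MRPL49, chr13:21176522-21176687 (plus) for SKA3 and MRPL57, and chr17:50373155-50373259 (minus) for EME1 and MRPL27. The starts are 49, 106 and 45 bases apart in that order. Capitals mark an NRF1 match between SKA3 and MRPL57 and 2 ETS matches between EME1 and MRPL27.

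FAU encodes a cytosolic ribosomal protein fused to a ubiquitin-like domain. It read 161, 130.0 and 129 in SALL4-sh cells, against 371, 269 and 327 in Scr-sh cells, a log2 fold change of -1.20 ± 0.18 (SE, adjusted p = 0.0044). MRPL49 beside it read 11.2, 22.7 and 13.5 in SALL4-sh cells, against 10.5, 12.2 and 11.3 in Scr-sh cells. Its log2 fold change was 0.41, and 0.12 without SALL4-sh replicate 2, its highest array. The Scr-sh values of MRPL49 lie near the floor of 8, so a fall as large as that of FAU could not show in full. SKA3, a protein of the spindle and kinetochore complex, read 40.1, 86.3 and 73.1 in SALL4-sh cells, against 10.5, 23.3 and 12.02 in Scr-sh cells, a log2 fold change of 2.14 ± 0.35 (SE, adjusted p = 0.0061). MRPL57 beside it read 34.6, 27.1 and 23.2 in SALL4-sh cells, against 25.5, 26.1 and 24.1 in Scr-sh cells, at 0.15 (-0.0065 without SALL4-sh replicate 1). EME1, part of a DNA repair endonuclease, had -0.78 (adjusted p = 0.031) beside 0.028 for MRPL27, which ran from -0.26 to 0.25 with 1 array left out. The SALL4-sh values of EME1 (17.1, 11.0 and 13.4) and those of SKA3 on Scr-sh replicates 1 and 3 also lay near the floor. TCP1, a chaperonin subunit, had 0.66 (adjusted p = 0.030) beside 0.21 for MRPL18. In the other direction MRPL37 fell while its neighbour CYB5RL, near the floor, had 0.097. FAU and SKA3 passed with each array left out in turn, EME1 without SALL4-sh replicate 1 and TCP1 without Scr-sh replicate 2.

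The difference itself was tested by comparing the log2 ratio of neighbour to member between the groups, in the 18 pairs. The neighbour's log2 fold change minus the member's was -1.61 for FAU and MRPL49, 2.00 for SKA3 and MRPL57, -0.80 for EME1 and MRPL27, 0.44 for TCP1 and MRPL18, and 0.90 for CYB5RL and MRPL37. For FAU and MRPL49 it was -1.27 without SALL4-sh replicate 2, and MRPL49 was near the floor. SKA3 on Scr-sh replicates 1 and 3 and EME1 in SALL4-sh cells were near it too. In 3 pairs where neither gene passed, it was -1.10 for GGA3, a Golgi adaptor, and MRPS7, 0.89 for PIERCE1 and MRPS2, and 0.71 for SARS2, the mitochondrial seryl-tRNA synthetase, and MRPS12. A two-sided exact permutation test over the arrays gave p = 0.1 for these 3 and for 4 of the first 5 pairs, and 0.2 for TCP1 and MRPL18 (n = 3 each). The remaining 10 pairs had exact p-values of 0.2 to 0.9. The smallest p that 3 arrays against 3 allow is 0.1, so this design cannot reach 0.05, and after Benjamini-Hochberg adjustment over 18 pairs these exact values were 0.26 and 0.33.

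**Figure D5:**
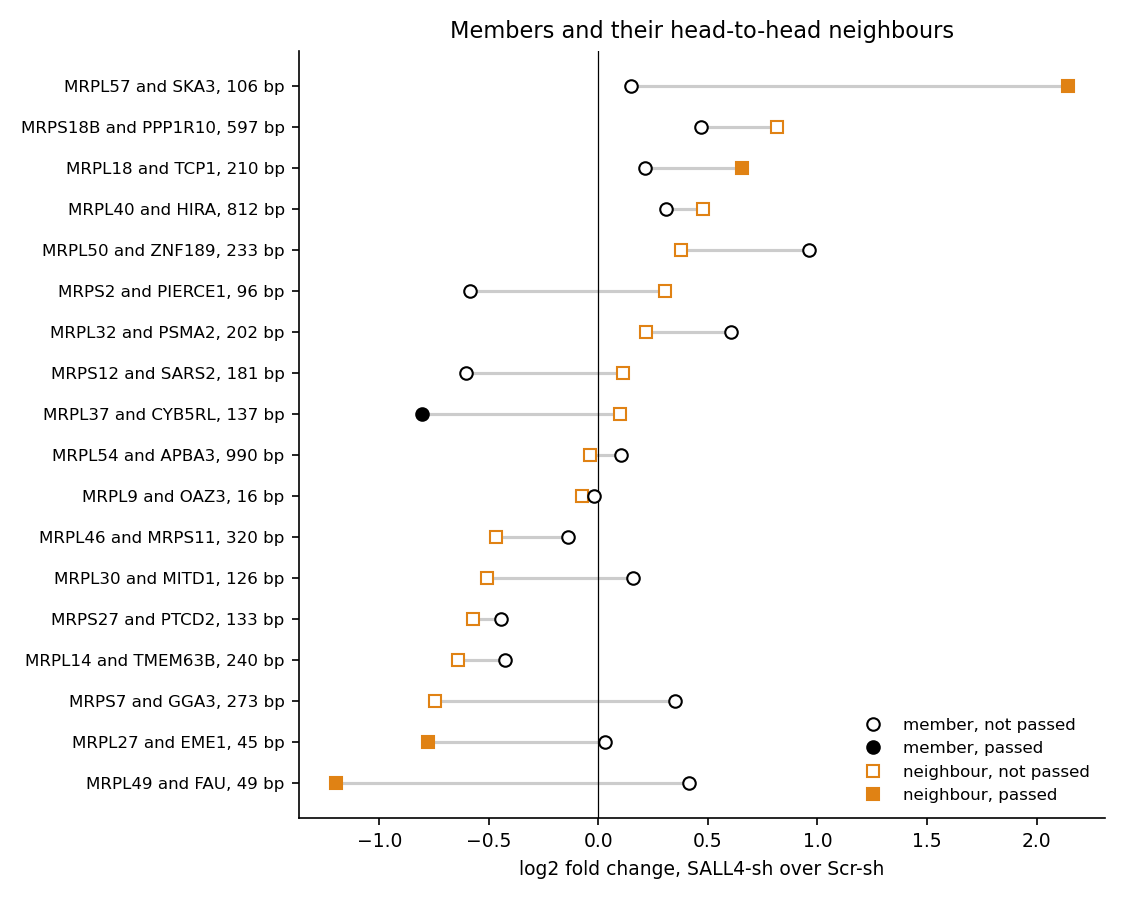
Log2 fold change (SALL4-sh over Scr-sh, horizontal axis) of members (circles) and their head-to-head neighbours (squares) in 18 pairs, with the distance between starts in base pairs; filled symbols passed the test. SKA3 at 2.14 and FAU at -1.20 lie farthest from their partners MRPL57 (0.15) and MRPL49 (0.41, near the floor). On Scr-sh replicates 1 and 3 SKA3 was also near the floor.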

How the data were processed

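Total RNA of H661 cells was hybridised to 6 Affymetrix Human Gene ST arrays, 3 with the SALL4 and 3 with the scrambled hairpin. The authors deposited RMA intensities, not yet in log form (version not given in the sources used here). Their lowest value is 8, held by 38.8% to 40.4% of the 32321 probe sets on each array. RMA and the floor compress the changes of dim genes. Genes were named from the platform annotation, where 19158 probe sets had 1 symbol, 1388 several and 11775 none listed. The brightest probe set of each gene was kept and log2 was taken. The 4 member probe sets with several symbols were left out.

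Genes with a mean log2 intensity above the 25th percentile were fitted by lmFit and eBayes of limma (3.58.1, under R 4.3.3), and p-values were adjusted by Benjamini-Hochberg, with a threshold of 0.05. The study's methods used a one-way ANOVA, which was run as an alternative. Dim genes were left out because genes with the value 8 everywhere do not vary and lowered the prior degrees of freedom (0.42 without and 5.33 with the filter). Precision is limited by 3 arrays in each group. The fit was tested on simulated data. Alternatives were other filters, normalizations, array weights, a replicate block and each array left out. Named were SALL4, members past the threshold, the 5 brightest and 5 dimmest members, the pseudogene, and up to 4 genes past the threshold in each related list. DAP3 and some members that did not pass were named outside this rule. Members and lists were chosen with earlier results of these data known. The list of proteins encoded by mitochondrial DNA matched no single-symbol probe set and was not analysed here. Head-to-head pairs and start-site windows were read from RefSeq (GRCh38.p14) with Python.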

Additional observations from a re-analysis of the deposited data

How the results depend on the processing

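SALL4 and MRPS15 stayed past the threshold in every alternative run. The same 11 members passed after median centring, cyclic loess or quantile normalization, with the mean of the probe sets of a gene, with no value at the floor and with a 1.5-fold minimum. Without the filter on dim genes 1 member was higher and 2 were lower (1.18% and 1.33% of 18404 genes); 2 of the 3 were among the 11, and the third was MRPL36. By one-way ANOVA with the same adjustment 0 were higher and 1, MRPS15, was lower (0.819% and 1.04% of genes), where 11 and 12 passed at an unadjusted limma p under 0.05 (13.6% and 11.1%). With array weights 7 were higher and 7 lower (8.36% and 6.89% of genes), 10 of the 14 calls being among the 11, with MRPS21 lost and MRPL16, MRPL32, MRPL36 and MRPL50 added; Scr-sh replicate 2 had the lowest weight, 0.51. With 1 array left out the counts ranged from 0 to 6 higher and from 2 to 8 lower, and the shares of all genes from 2.34% to 8.08% and from 2.77% to 6.01%. Deviations of arrays with the same replicate number correlated at 0.14, 0.11 and -0.00089, and those of arrays with different numbers at -0.15 to 0.034. Whether the replicate numbers pair the arrays was not settled. With the number as a block 6 were higher and 6 lower (6.54% and 5.82% of genes). Of these calls 9 were among the 11, with MRPL58 and MRPS21 lost and MRPL16, MRPL35 and MRPL50 added. The median of the protein-coding members was -0.039 after cyclic loess normalization and ranged from -0.050 to 0.056 with 1 array left out. None of the 11 members turned sign. Of the members that did not pass, 22 turned sign with 1 array left out, each at most 0.22 in size on the log2 scale with all arrays. Among the brightest and dimmest these were MRPL44 (0.022 without SALL4-sh replicate 3 and 0.029 without Scr-sh replicate 1, over a range of -0.099 to 0.029) and MRPS5 (0.0016, 0.020 and 0.0097 without SALL4-sh replicate 1, SALL4-sh replicate 2 and Scr-sh replicate 3, over a range of -0.053 to 0.020). The lower cytosolic ribosomal proteins numbered 6 without the filter. The settings for related lists, subunits, classes by origin and neighbours were added after seeing the data. The cause of these changes was not tested, and 3 arrays a group limit what can be called.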
